A study of Homo sapiens with 12 samples.

Results

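The LIN28, HMGA and IGF2BP genes are an oncofetal group, genes that are active in the embryo and in many tumours and low in most adult tissues. The 7 members LIN28A, LIN28B, HMGA1, HMGA2, IGF2BP1, IGF2BP2 and IGF2BP3 were taken by gene name from the 60617 genes of the expression table, by a rule that uses no measured value, though earlier results of these data were known when the group was chosen. All 7 were counted in every library and passed the filter on low counts, with at least 2920 reads on each member in each library. The data were RNA-Seq of 201B7, an established line of human induced pluripotent stem cells (iPSCs), which are body cells returned to an embryonic-like state. All cells were maintained in StemFit, an iPSC medium, on coated dishes, and 3 libraries were made on Day 5 for each of 4 conditions. Cond 1 was the control and kept this culture. Cond 2 (low nutrient) received StemFit that had been heated to 56 °C for 30 min, Cond 3 (differentiation medium) received DMEM containing FBS (10%), MEM NEAA (1%) and GlutaMax (1%), and Cond 4 (physical stimulus) was pipetted 20 times at passaging. The heated medium was given from an earlier day than the FBS medium, so that the kind of medium and its duration cannot be told apart between Cond 2 and Cond 3. The labels do not say that the 3 libraries came from separate cultures. The study's results call the replicates technical, while its methods describe an arrangement carried out 3 times. The p-values are therefore read as measuring only the spread between these libraries.

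LIN28A and LIN28B are RNA-binding proteins with a cold shock domain that bind the loop of let-7 precursor RNAs and block the maturation of let-7, a family of small RNAs that lower the mRNAs of other genes by pairing with them. HMGA1 and HMGA2 are small chromatin proteins that bind AT-rich DNA through AT-hooks, and IGF2BP1, IGF2BP2 and IGF2BP3 bind mRNAs, among them mRNAs marked by m6A, and affect their stability and transport. Members of all 3 families are known let-7 targets, and pluripotent cells are known for high LIN28A and little mature let-7.

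The sequences that link the families are the let-7 seed and its matches in the members' mRNAs. The let-7 RNAs were not measured, since small RNAs were not in these libraries. In the mature sequences, taken from RefSeq (GRCh38.p14) and written 5′ to 3′, the capitals mark the seed, bases 2 to 8, and 9 of 9 mature let-7 and miR-98 sequences in the table held the same one. Below them are 2 let-7 hairpins. Where there is one, the first GGAG after the mature arm is in capitals, letters that LIN28 proteins are known to bind. Of the 11 let-7 hairpins searched, 9 held these letters there, and let-7b is shown as one of the 2 that did not.
hsa-let-7a-5p: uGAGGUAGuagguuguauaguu
hsa-let-7d-5p: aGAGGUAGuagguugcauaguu
hsa-let-7g-5p: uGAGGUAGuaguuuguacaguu
hsa-miR-98-5p: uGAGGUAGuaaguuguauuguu
MIRLET7G hairpin, chr3:52268278-52268361, minus strand: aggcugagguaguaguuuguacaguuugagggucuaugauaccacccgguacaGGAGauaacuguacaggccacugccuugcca
MIRLET7B hairpin, chr22:46113686-46113768, plus strand: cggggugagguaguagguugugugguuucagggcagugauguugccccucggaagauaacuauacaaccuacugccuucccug

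The reverse complement of the seed, CTACCTC, was searched on the transcript strand of the 3′ UTRs of 18780 MANE Select transcripts (GENCODE release 44, GRCh38). All 7 members held at least 1 match, against 9.85% of all 3′ UTRs, which had a median length of 1088 bases against 1347 to 6701 bases in the members. Per length the members held 0.306 matches per kb (LIN28A) to 1.33 matches per kb (HMGA2), against 0.063 matches per kb over all 3′ UTRs. LIN28B, HMGA2 and IGF2BP1 held 4 matches each, and the other members held 1 each. Only 12 transcripts held 4 or more. The 8-base form CTACCTCA, a part of these matches, was in 3.8% of all 3′ UTRs and in every member except HMGA1. The windows of 22 bases below show the 4 matches of HMGA2, the member with the largest rise, and the first match of every other member, with the matching bases in capitals and on the mRNA strand.
HMGA2, chr12:65963299-65963320, plus strand: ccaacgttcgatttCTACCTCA
HMGA2, chr12:65964534-65964555, plus strand: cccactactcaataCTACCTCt
HMGA2, chr12:65964946-65964967, plus strand: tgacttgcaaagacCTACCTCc
HMGA2, chr12:65965799-65965820, plus strand: atcaaaacacactaCTACCTCt
LIN28A, chr1:26427349-26427370, plus strand: cacagcctattgaaCTACCTCA
LIN28B, chr6:105078813-105078834, plus strand: cccggttgcaaagtCTACCTCA
HMGA1, chr6:34245830-34245851, plus strand: cctctgttcacaaaCTACCTCt
IGF2BP1, chr17:49051062-49051083, plus strand: gtgtgcgaagtaaaCTACCTCA
IGF2BP2, chr3:185644220-185644241, minus strand: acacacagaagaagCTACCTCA
IGF2BP3, chr7:23311795-23311816, minus strand: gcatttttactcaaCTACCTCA
These matches are a description of the letters and do not show that a site was used in these cells.

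**Figure D1:**
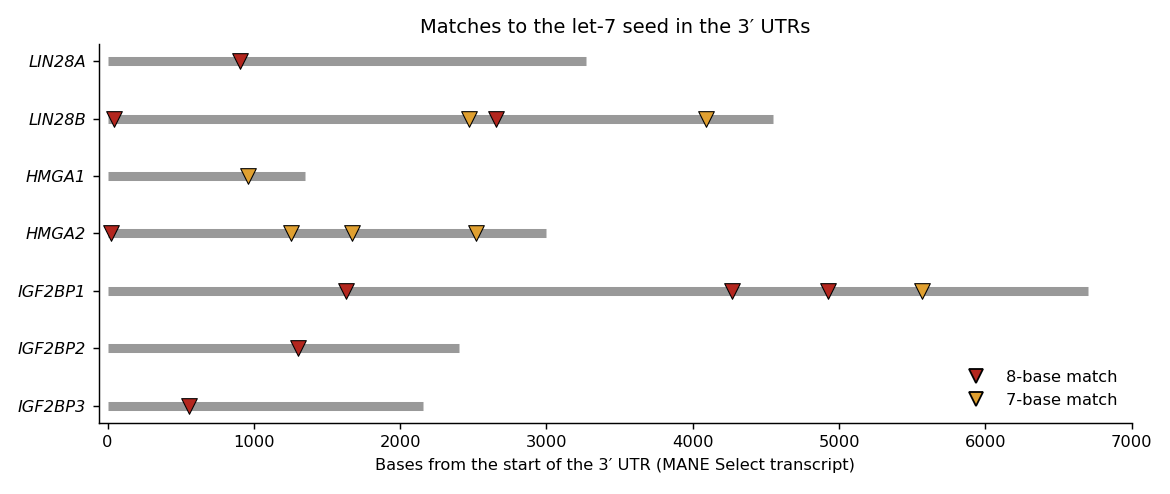
Matches to the let-7 seed along the 3′ UTR of each member, drawn to scale as grey bars from the end of the coding sequence, with the position in bases on the x axis. Triangles are matches of 8 bases (red) and of 7 bases (yellow). LIN28B, HMGA2 and IGF2BP1 carry 4 triangles each and the other members 1 each, and the longest bar is that of IGF2BP1 with 6701 bases.

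The members were measured at high depth and at very different levels. Total counts were between 16441148 and 21871503 per library, and replicates differed by more than sampling noise in every pair (chi-square per gene 4.17 to 10.2 over 12 pairs), and none were merged. The labels give skin as the source. The list of 12 pluripotent cell markers did not hold POU5F1 (OCT4), a marker used by the study. The 12 listed genes summed to 7630 to 7750 TPM (transcript level, scaled for gene length and for the library's total) in Cond 1. Of these 12, 12 had a mean TPM of at least 1 in every condition. Of 7 keratinocyte markers, 1 reached that level (KRT10) and KRT5, KRT14, TP63 and IVL were at 0 in all libraries of Cond 1. Of 9 fibroblast markers, 5 reached it in Cond 1. COL1A1, COL1A2 and THY1 were at 47.0 to 246 TPM, PDGFRB was at 7.97 TPM and TWIST2 at 2.11 TPM. COL3A1 was at a mean of 0.317 TPM, POSTN at 0.173 TPM and LUM at 0.0529 TPM, and DCN was at 0 in all libraries of Cond 1. In these bulk data, fewer cells expressing a gene and less of its RNA per cell cannot be told apart.

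In Cond 1 the levels were, from the highest to the lowest, those of HMGA1, LIN28A, IGF2BP1, IGF2BP2, IGF2BP3, LIN28B and HMGA2. HMGA1 (ENSG00000137309, chromosome 6 of GRCh38 from 34236873 to 34246231, plus strand) stood at 5670 ± 99.7 TPM (SD, n = 3) in Cond 1 and ranked 4 or 5 among 19342 protein-coding genes in every one of the 12 libraries. LIN28A (ENSG00000131914, chromosome 1 from 26410817 to 26429728, plus strand) stood at 1689 ± 101 TPM (SD, n = 3) in Cond 1 and ranked between 19 and 31 over all libraries. The other 5 members were far below HMGA1 and still among the upper 2722 protein-coding genes in every library.

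IGF2BP1 at 212 ± 0.965 TPM (SD, n = 3) and IGF2BP2 at 209 ± 2.61 TPM (SD, n = 3) overlapped in Cond 1 and were apart in Cond 2, Cond 3 and Cond 4, with IGF2BP1 the higher. IGF2BP3 at 126 ± 2.55 TPM (SD, n = 3) was above LIN28B at 106 ± 7.67 TPM (SD, n = 3) in each library of Cond 1 and Cond 4. In Cond 2 LIN28B was above IGF2BP3 within each of the 3 libraries, and in Cond 3 in replicate 2, and over the libraries of either condition the ranges of these neighbours overlapped. HMGA2 at 62.0 ± 1.40 TPM (SD, n = 3) was the lowest member in all 12 libraries. Their genes lie on GRCh38 at chr17:48997385-49056145 (IGF2BP1, plus strand, ENSG00000159217), chr3:185643130-185825042 (IGF2BP2, minus strand, ENSG00000073792), chr7:23310209-23470491 (IGF2BP3, minus strand, ENSG00000136231), chr6:104936616-105083332 (LIN28B, plus strand, ENSG00000187772) and chr12:65824460-65966291 (HMGA2, plus strand, ENSG00000149948). Together the 7 members made up 0.764% to 0.923% of all TPM in a library.

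**Figure D2:**
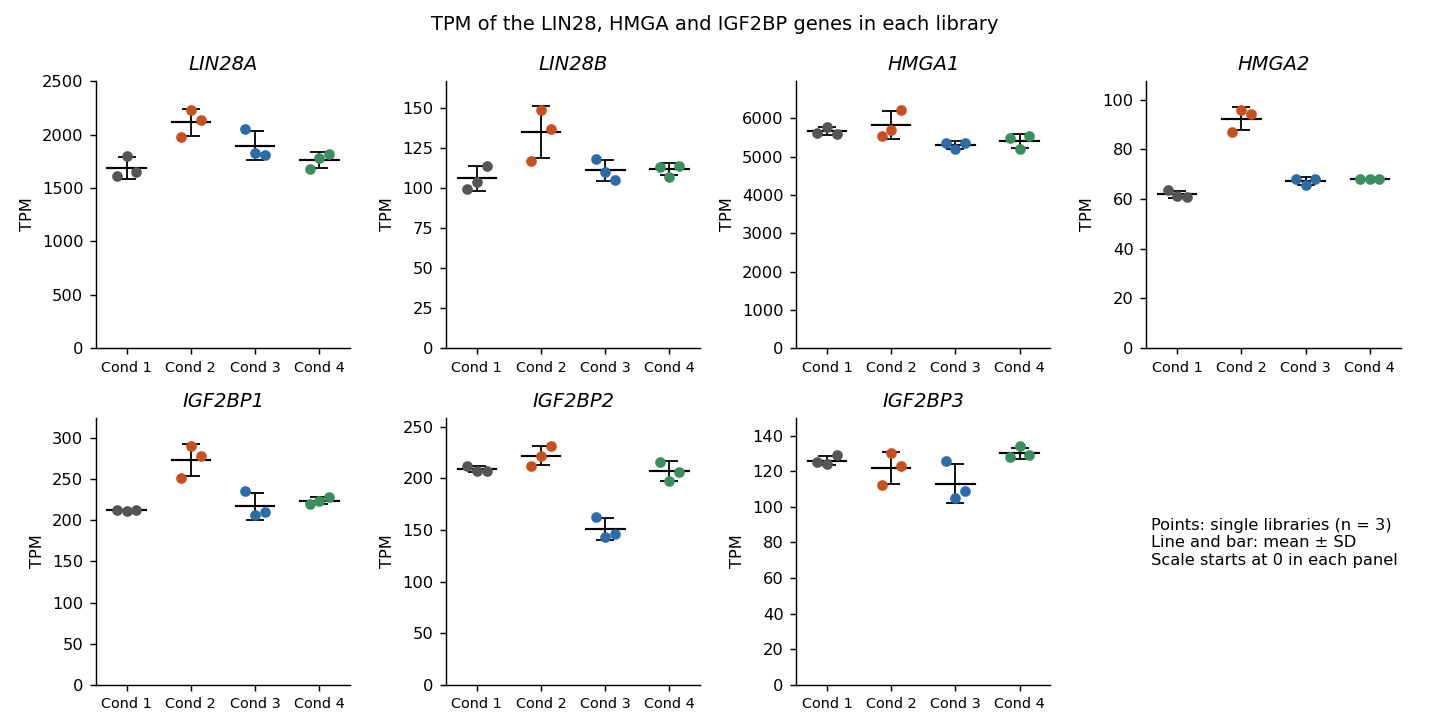
TPM of each member (y axis, starting at 0) in the 3 libraries of Cond 1 to Cond 4 (x axis), with points for libraries and the mean ± SD in black. HMGA2 and IGF2BP1 stand apart in Cond 2, at 87.0 to 96.0 and 252 to 290 TPM, and IGF2BP2 stands apart in Cond 3, at 143 to 163 TPM.

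Cond 2 against Cond 1 asks what the heated medium changed. LIN28A, LIN28B, HMGA2 and IGF2BP1 rose by 1.18-fold to 1.40-fold, and HMGA1, IGF2BP2 and IGF2BP3 did not pass the test. Of the 7 members, 4 were called higher and 0 lower by edgeR's quasi-likelihood test at a Benjamini-Hochberg adjusted p-value under 0.05, and of the 17747 genes tested 20.9% were called, 10.8% higher and 10.1% lower. The TPM of 5 members was higher in each library of Cond 2 than in each of Cond 1 (the 4 called and IGF2BP2). The median log2 fold change was 0.24 over the members and 0.00018 over all genes tested. No member had a fold change above 2, the study's own threshold, which 4.34% of all genes passed along with the adjusted p-value.

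HMGA2 showed the largest difference of the 7. Its level was 63.6, 61.4 and 61.0 TPM in the libraries of Cond 1 and 87.0, 96.0 and 94.1 TPM in those of Cond 2. Each library of Cond 2 lay above each library of Cond 1, as was the case for 24.4% of all genes tested (35.7% were apart in either direction, 11.2% as lower). The log2 fold change was 0.49 (standard error, SE, 0.047 with adjusted p = 4.42e-08), a 1.40-fold rise.

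IGF2BP1, the IGF2BP known to bind the mRNAs of MYC and ACTB, was at 213, 211 and 212 TPM in Cond 1 and at 252, 290 and 278 TPM in Cond 2. The 3 control libraries were nearly equal and the treated ones all higher, with a log2 fold change of 0.28 (SE 0.051, adjusted p = 2.73e-04).

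LIN28A, which recruits enzymes that tail and destroy let-7 precursors in the cytoplasm, was at 1613, 1804 and 1651 TPM in Cond 1 and at 1981, 2235 and 2136 TPM in Cond 2. Its log2 fold change was 0.24 (SE 0.051, adjusted p = 0.00132), and the groups did not overlap. LIN28B, its paralogue that can also act in the nucleus, was at 99.2, 104 and 114 TPM in Cond 1 and at 117, 149 and 137 TPM in Cond 2. Its lowest library of Cond 2 was close to the highest of Cond 1, and on TMM-scaled counts the ranges overlapped. The log2 fold change of LIN28B was 0.26 (SE 0.070, adjusted p = 0.00972), and it did not pass without replicate 1 of Cond 1 (0.21, adjusted p = 0.0759 from edgeR) or without replicate 2 of Cond 2 (0.18, adjusted p = 0.104 from edgeR).

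HMGA1 was at 5626, 5784 and 5599 TPM in Cond 1 and at 5550, 5695 and 6226 TPM in Cond 2, with overlapping ranges and a log2 fold change of -0.05 (95% interval -0.13 to 0.03). IGF2BP2 was at 212, 207 and 207 TPM in Cond 1 and at 212, 222 and 231 TPM in Cond 2. Its TPM was higher in each library of Cond 2, yet on counts scaled by the trimmed mean of M-values (TMM) its ranges overlapped and its log2 fold change was -0.0011 (95% interval -0.11 to 0.11). IGF2BP3 was at 125, 124 and 129 TPM in Cond 1 and at 112, 130 and 123 TPM in Cond 2. Its TPM ranges overlapped, while on TMM-scaled counts each library of Cond 2 was below each of Cond 1. Its log2 fold change was -0.14 (95% interval -0.26 to -0.02, SE 0.060), without passing the test (adjusted p = 0.103 from edgeR). With limma on log2(TPM + 1) the median log2 fold change over all genes was itself 0.085 in Cond 2, and on that scale HMGA1 and IGF2BP2 had positive signs, 0.037 and 0.085, without passing the test.

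Beside the rise of these 4 members in Cond 2, some neuroectoderm markers were higher there, while others stayed near the floor. The summed level of 7 neuroectoderm markers was 21.5 to 34.0 TPM in Cond 1 and 468 to 763 TPM in Cond 2. It was 59.2 to 78.2 TPM in Cond 3 and 28.5 to 49.8 TPM in Cond 4. Of the 6 that could be tested, 5 rose in Cond 2, among them SIX3 (log2 fold change 5.94) and LHX5 (4.97), transcription factors of the early forebrain. Most of the sum came from LHX5, HESX1 and SIX3, at means of 262, 172 and 158 TPM in Cond 2. PAX6, also called higher, was at a mean of only 0.225 TPM in Cond 2. SOX1 was not tested and was at 0.259 TPM in Cond 2 and 0.699 TPM in Cond 3. LHX2 did not pass (adjusted p = 0.102 from edgeR). Of the 12 pluripotent cell markers, 6 fell and 3 rose in Cond 2, with TDGF1 at a log2 fold change of -1.50 and SOX2 at 0.44. Whether cells of another type were present, and their part in the members' values, was not tested.

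**Figure D3:**
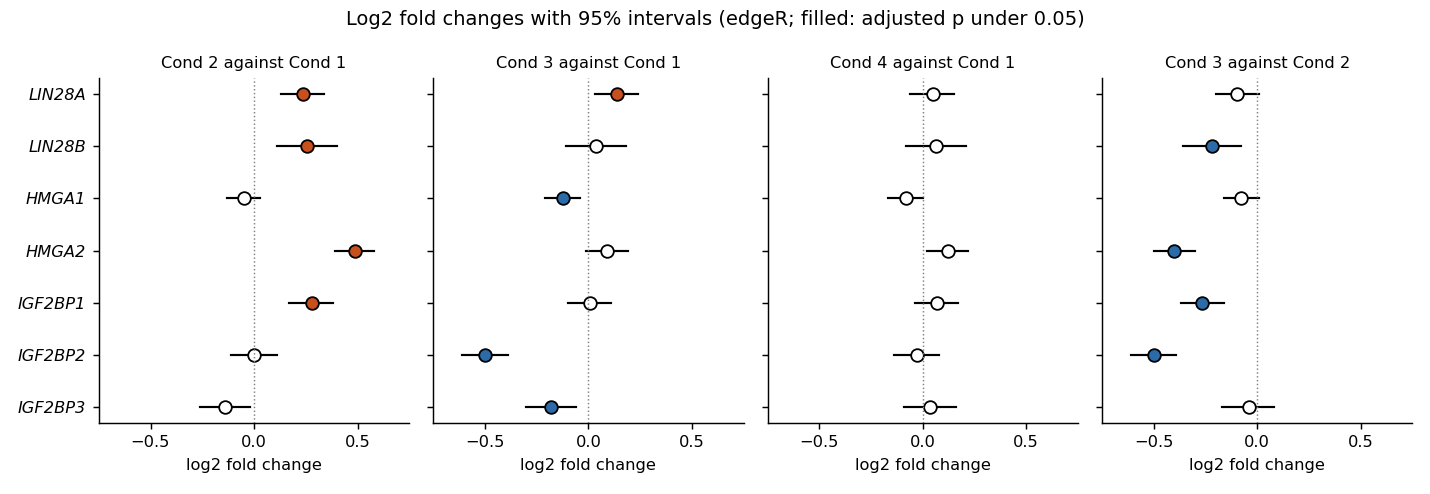
Log2 fold change (x axis) of each member (y axis) in 4 comparisons, from edgeR on TMM-scaled counts, with 95% intervals as lines. Filled points passed an adjusted p-value under 0.05, orange for higher and blue for lower. Cond 2 holds 4 orange points, Cond 3 holds 1 orange and 3 blue points, and Cond 4 holds no filled point.

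Cond 3 against Cond 1 asks what the differentiation medium changed. IGF2BP2 fell by 29.3%, HMGA1 and IGF2BP3 fell by 8.27% and 11.8%, and LIN28A rose by 10.1%, while LIN28B, HMGA2 and IGF2BP1 did not pass the test. Of the 7 members, 1 was called higher and 3 lower by edgeR, and of all genes tested 38.4% were called, 19.5% higher and 18.8% lower. The TPM ranges of LIN28A and HMGA2 were apart as higher and those of HMGA1 and IGF2BP2 as lower. The median log2 fold change was 0.01 over the members and -0.0064 over all genes. None of the members had a fold change above 2, against 8.16% of all genes tested that were called with such a fold.

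IGF2BP2, the IGF2BP that is also expressed in adult tissues, was at 212, 207 and 207 TPM in Cond 1 and at 163, 143 and 146 TPM in Cond 3. The ranges were far apart, as they were in the lower direction for 22.0% of all genes tested (26.6% were apart as higher and 48.6% in either direction). The log2 fold change was -0.50 (SE 0.055, adjusted p = 1.70e-07), the only one of the 4 calls that held without each library in turn and on TPM with limma.

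HMGA1 fell from 5626, 5784 and 5599 TPM in Cond 1 to 5362, 5187 and 5358 TPM in Cond 3. The groups did not overlap, and the log2 fold change was -0.12 (SE 0.040, adjusted p = 0.0171). The call was lost without replicate 2 of Cond 3 (-0.11, adjusted p = 0.0683 from edgeR). IGF2BP3 was at 126, 105 and 109 TPM in Cond 3 and its TPM overlapped with Cond 1, while on TMM-scaled counts it was lower in each library. Its log2 fold change was -0.18 (SE 0.060, adjusted p = 0.0192), and it did not pass without replicate 3 of Cond 1 (-0.16, adjusted p = 0.0844 from edgeR), replicate 2 of Cond 3 (-0.13, 0.125) or replicate 3 of Cond 3 (-0.16, 0.0863).

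LIN28A was at 2051, 1826 and 1814 TPM in Cond 3, with its lowest library just above the highest of Cond 1, while on TMM-scaled counts the ranges overlapped. The log2 fold change was 0.14 (SE 0.051, adjusted p = 0.0343). Without replicate 1 of Cond 3, the highest library of that group, it was 0.084 (adjusted p = 0.235 from edgeR), and it also did not pass without replicate 1 (0.10, 0.181) or replicate 3 (0.13, 0.0928) of Cond 1. With limma on log2(TPM + 1), 1 of the 7 members passed in this comparison, IGF2BP2.

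LIN28B was at 118, 110 and 105 TPM, HMGA2 at 68.2, 65.5 and 67.9 TPM and IGF2BP1 at 236, 207 and 210 TPM in Cond 3. The log2 fold changes against Cond 1 were 0.04 (95% interval -0.11 to 0.18) for LIN28B, 0.09 (-0.01 to 0.19) for HMGA2 and 0.01 (-0.10 to 0.11) for IGF2BP1. HMGA2 was above Cond 1 in each of the 3 libraries, and LIN28B and IGF2BP1 overlapped with it. Beside these values, the summed level of 9 fibroblast markers was 428 to 456 TPM in Cond 1 and 590 to 627 TPM in Cond 3. COL1A1, COL1A2 and POSTN were called higher and THY1 lower, with POSTN at a mean of only 2.5 TPM in Cond 3. Of the pluripotent cell markers 5 rose and 4 fell, with NANOG at a log2 fold change of -2.16. The part of either in the members' values was not tested.

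Cond 3 was then compared with Cond 2, which sets the 2 media, with their different durations, against each other. The comparisons of each with Cond 1 share the 3 control libraries and are not independent. LIN28B, HMGA2, IGF2BP1 and IGF2BP2 were lower in Cond 3, and 0 members were higher, against 38.2% of all genes called (19% higher and 19.2% lower, and 8.77% with a fold above 2, which no member had). The log2 fold change was -0.50 for IGF2BP2 (SE 0.054, adjusted p = 1.73e-07), -0.40 for HMGA2 (0.047, 4.26e-07), -0.27 for IGF2BP1 (0.051, 1.95e-04) and -0.22 for LIN28B (0.069, 0.0151). The TPM ranges of IGF2BP2, HMGA2, IGF2BP1 and HMGA1 were apart and those of LIN28B overlapped. Of all genes, 27.3% were apart in this direction, 20.3% in the other and 47.6% in either. On TMM-scaled counts the ranges of HMGA1 overlapped too. LIN28A at -0.10 (95% interval -0.20 to 0.01), HMGA1 at -0.08 (-0.16 to 0.01) and IGF2BP3 at -0.04 (-0.17 to 0.08) did not pass. The call of LIN28B was lost without replicate 2 of Cond 2 (-0.15, adjusted p = 0.142 from edgeR) or replicate 3 of Cond 3 (-0.19, 0.0803), and LIN28A passed without replicate 1 of Cond 3 (-0.15, 0.0255).

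Cond 4 against Cond 1 asks what repeated pipetting changed. By edgeR 0 of the 7 members passed, and 0.0282% of all genes tested did (0.0225% higher, 0.00563% lower, and 0.0169% with a fold above 2). At an unadjusted p-value under 0.05 there was 1 member, HMGA2, and 6.21% of all genes, and DESeq2 and limma called 0 members. HMGA2 was at 68.0, 68.0 and 68.2 TPM in Cond 4, above each library of Cond 1, with a log2 fold change of 0.12 (95% interval 0.02 to 0.22, adjusted p = 0.79). The TPM of 3 members (HMGA2 and IGF2BP1 higher, HMGA1 lower) was apart from Cond 1, against 11.9% of all genes (6.75% higher and 5.12% lower), and no member's 95% interval reached past 0.22 in size on the log2 scale.

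The shares of paralogues in the summed TPM of their family were apart from Cond 1 in every other condition for the HMGA pair and for IGF2BP1, and overlapped with it in every condition for the LIN28 pair. LIN28B made up 5.91% ± 0.516 (SD, n = 3) of the LIN28 sum in Cond 1, 5.96% ± 0.358 in Cond 2, 5.52% ± 0.127 in Cond 3 and 5.96% ± 0.307 in Cond 4, and these ranges overlapped in every comparison made (smallest p = 0.2, two-sided exact permutation test). LIN28A thus exceeded LIN28B by a mean ratio of 15.8 to 17.1 in all conditions. HMGA2 made up 1.08% ± 0.0341 (SD, n = 3) of the HMGA sum in Cond 1 and 1.56% ± 0.0863 in Cond 2, and the ratio of HMGA1 to HMGA2 was 91.5 in Cond 1 and 63.1 in Cond 2. The share of HMGA2 was 1.25% ± 0.00473 in Cond 3 and 1.24% ± 0.0400 in Cond 4, above Cond 1 in each library.

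In the IGF2BP family, the share of IGF2BP1 was 38.8% ± 0.118 (SD, n = 3) in Cond 1 and 44.3% ± 0.776 in Cond 2, with 45.2% ± 0.240 in Cond 3. IGF2BP3 held 23.0% ± 0.424 of the family in Cond 1 and 19.7% ± 0.464 in Cond 2, against 23.5% ± 0.415 in Cond 3, where it overlapped with Cond 1 (exact permutation p = 0.3). IGF2BP2 held 38.2% ± 0.361 in Cond 1 and 36.0% ± 1.23 in Cond 2, against 31.3% ± 0.233 in Cond 3. Set against Cond 1, the share of IGF2BP3 differed by -3.33 percentage points in Cond 2 and that of IGF2BP2 by -6.89 percentage points in Cond 3, and between Cond 3 and Cond 2 the differences were 3.81 points for IGF2BP3 and -4.69 points for IGF2BP2, in each case without overlap and with an exact two-sided permutation p = 0.1, the smallest that 3 libraries against 3 can give. In Cond 4 the shares were 39.9% ± 0.813 for IGF2BP1, above each library of Cond 1, and 36.8% ± 1.41 for IGF2BP2 and 23.2% ± 0.806 for IGF2BP3, which overlapped with Cond 1 (exact permutation p = 0.3 and 0.9). A share depends on the other members of its family, so that these values are not separate from the levels above.

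**Figure D4:**
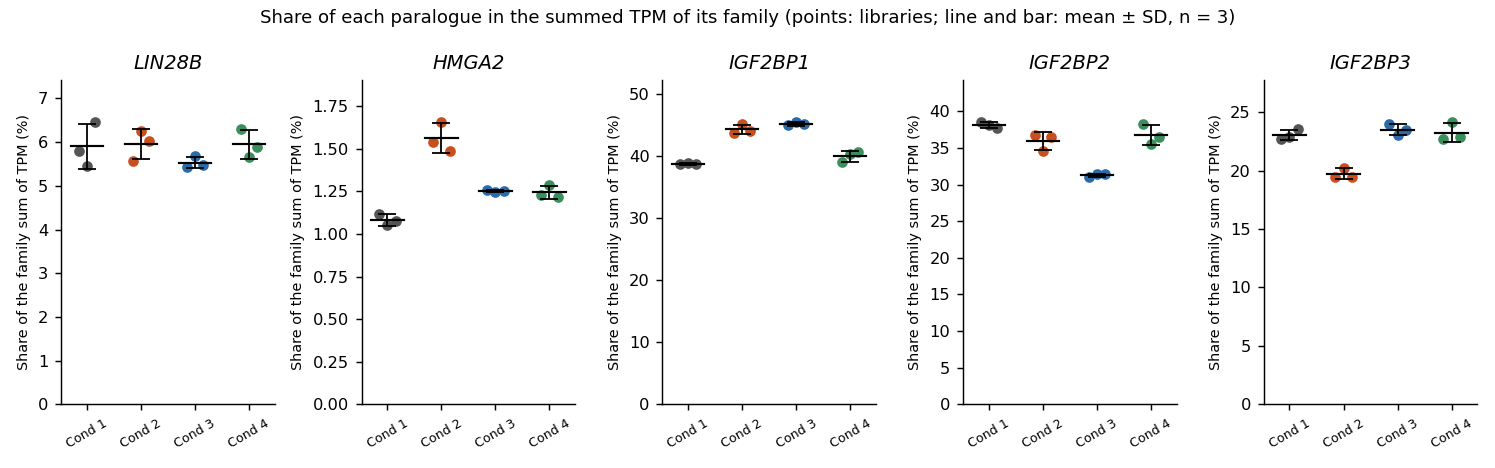
Share of LIN28B, HMGA2 and each IGF2BP gene in the summed TPM of its family (y axis, percent, starting at 0) in the libraries of Cond 1 to Cond 4 (x axis), with the mean ± SD in black. LIN28B stays near 5.52% to 5.96%, HMGA2 is highest in Cond 2, IGF2BP2 lowest in Cond 3 and IGF2BP3 lowest in Cond 2.

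The 3 members with 4 seed matches (LIN28B, HMGA2 and IGF2BP1) were all called higher in Cond 2, and of the 4 members with 1 match only LIN28A was. In Cond 3 none of these 3 passed the test. Over all genes with a MANE Select 3′ UTR, the median log2 fold change in Cond 2 was 0.012 for 12134 genes without a match, 0.047 for 1321 genes with 1 match, 0.066 for 151 with 2, 0.077 for 22 with 3 and 0.22 for the 12 with 4 or more, of which 3 are members. The share called higher was 13.0%, 16.4%, 18.5%, 13.6% and 58.3% in the same order. The share called lower was 11.6%, 9.16%, 10.6%, 0% and 16.7%. The 58.3% stands for 7 of 12 genes, among them the 3 members. In Cond 3 the medians were 0.013, 0.0043, 0.014, 0.069 and 0.023. There the share called higher was 23.8%, 24.8%, 27.2%, 22.7% and 33.3%, and the share called lower 21.1%, 22.3%, 21.2%, 27.3% and 25.0%. The differences between these classes were not tested, and the classes also differed in length. Over all 3′ UTRs searched, the median length was 956 bases without a match and 2767 bases with 1. It was 4515 bases with 2 matches, 7536 with 3 and 5692 with 4 or more.

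Besides the members, 9 genes had 4 or more matches. In Cond 2, 4 of them rose and 2 fell, and in Cond 3, 4 rose and 3 fell, with a median of 0.20 in Cond 2 and -0.04 in Cond 3. TRIM71, an RNA-binding ubiquitin ligase of early embryos with 6 matches, was higher in both media (log2 fold change 0.39 in Cond 2, adjusted p = 5.80e-05, and 0.35 in Cond 3, adjusted p = 1.09e-04). IGDCC3, with 4 matches, was lower in both (-0.88, adjusted p = 3.61e-09, and -0.36, adjusted p = 2.77e-04).

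Lists of related genes were read against all genes tested, of which 10.8% were called higher and 10.1% lower in Cond 2, and 19.5% higher and 18.8% lower in Cond 3. In a list of 28 other genes known as let-7 targets, 26 could be tested, of which 10 rose and 5 fell in Cond 2 (median 0.16) and 10 rose and 7 fell in Cond 3 (median 0.094). TRIM71, IGDCC3, NR6A1 and HIC2 are in this list and also among the 9 genes above, and DICER1 is also in the next list. TGFBR1, a TGF-beta receptor, rose in Cond 2 (0.50, adjusted p = 2.31e-06), and MYC, a growth-promoting transcription factor that is also in the list of IGF2BP-bound RNAs, fell in both media (-0.63, adjusted p = 1.68e-04, and -1.65, adjusted p = 1.46e-10). THBS1, a secreted matrix protein, rose in Cond 2 (0.70, adjusted p = 2.96e-06) and it fell in Cond 3 (-1.18, adjusted p = 1.15e-09). In Cond 4 none of the 26 passed the test.

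Of 20 genes of microRNA processing and let-7 decay, 18 could be tested, and 3 rose and 1 fell in Cond 2 (median 0.098), a share of calls near the 20.9% over all genes. TRIM25, a known cofactor of LIN28A in tailing let-7 precursors, fell in Cond 2 (-0.50, adjusted p = 0.00126). AGO2, AGO4 and DICER1 rose by 0.31, 0.35 and 0.30, and each of these calls was lost without at least 1 library (for DICER1 without replicate 2 of Cond 2, 0.23, adjusted p = 0.0537 from edgeR; for AGO2 without replicate 1 of Cond 1, 0.27, 0.0563, or replicate 3 of Cond 2, 0.24, 0.0512; for AGO4 without replicate 1 of Cond 1, 0.31, 0.0627, or replicate 2 of Cond 2, 0.28, 0.0838). On TPM, limma tested all 20 genes of this list, with TNRC6B and DDX17 added, and 8 passed as higher in Cond 2. In Cond 3, 3 rose and 5 fell (median -0.045), against 38.4% of all genes called. Among those that fell were AGO3 (-0.87, adjusted p = 5.72e-07), DIS3L2, the exonuclease that destroys tailed let-7 precursors (-0.51, adjusted p = 2.78e-04), and XPO5, the export factor of precursors (-0.26, adjusted p = 3.77e-04). Of 7 host transcripts of let-7 genes, 2 could be tested, MIR100HG and HUWE1, and neither passed the test in any comparison. MIR100HG was at a mean of only 0.158 TPM in Cond 1. MIRLET7BHG (0.161 TPM) and MIR99AHG (0 TPM in Cond 1) were not tested. MIRLET7A1HG, MIRLET7DHG and MIRLET7IHG were not found as a single gene under these names, so nothing is said of their levels.

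Of 19 genes that write, erase or read m6A, the mark that IGF2BP proteins are known to read, 4 rose and 1 fell in Cond 2 (median 0.12), and 7 rose and 3 fell in Cond 3 (median 0.13). METTL3, the methyltransferase, fell in Cond 2 (-0.50, adjusted p = 1.08e-04), and the reader HNRNPA2B1 rose in Cond 3 (0.62, adjusted p = 1.20e-10). The counts depended on the scaling. In Cond 2 upper-quartile scaling left 2 higher calls, and limma on TPM, which tested 18 of these genes, gave 9. In Cond 3 the 3 lower calls became 1 with upper-quartile scaling and 0 with limma on TPM. Of 9 RNAs known to be bound by IGF2BP proteins, 5 could be tested. MYC was the one called in Cond 2, and in Cond 3 BTRC (0.40, adjusted p = 4.60e-04) and CD44 (0.80, adjusted p = 0.0192) were higher and MYC and ACTB (-0.65, adjusted p = 9.54e-10) lower. CD44 did not pass without replicate 1 of Cond 1 (0.63, adjusted p = 0.104 from edgeR) or replicate 3 of Cond 3 (0.73, 0.0658). The oncofetal IGF2, whose mRNA gave this family its name, and H19 had too few counts to be tested.

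Relatives of the members by protein domain behaved unevenly. Of 10 other high mobility group genes tested, 2 rose and 2 fell in Cond 2 and 3 rose and 2 fell in Cond 3. On TPM, limma tested 11 such genes, with HMGN1 added. HMGN1 was at a mean of 268 TPM in Cond 1 and was not in the fit on counts. With limma 3 were higher and 1 lower in Cond 2, and 3 higher and 0 lower in Cond 3. The values included HMGN2, a nucleosome-binding protein, at 0.39 in Cond 2 (adjusted p = 5.45e-06) and HMGB1 at 0.26 in Cond 3 (adjusted p = 5.04e-04). Of 5 other cold shock domain genes, 1 rose in Cond 2, and 1 rose and 2 fell in Cond 3, with YBX3 at -0.40 in Cond 3 (adjusted p = 8.03e-06). Of 7 other oncofetal genes tested, 5 rose and 0 fell in Cond 2 (median 0.44, with 1 lower call under DESeq2 or upper-quartile scaling). In Cond 3, 5 rose and 0 fell (median 0.35). TRIM71 and SALL4 rose in both and are not separate from the lists above. TRIM71 is also among the let-7 targets and SALL4 among the pluripotent cell markers. GPC3, a cell surface proteoglycan, rose in Cond 2 by 1.79 on the log2 scale (adjusted p = 4.61e-15) and DLK1, a membrane protein of the Notch ligand family, by 4.37 (adjusted p = 2.78e-08), both far beyond the members, and both failed the test in Cond 3 at 0.06 and -0.52. AFP, a fetal serum protein, was higher in Cond 3 (3.63, adjusted p = 3.77e-04) at a mean of 3.85 TPM, and its value was 6.68 without replicate 3 of Cond 1.

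**Figure D5:**
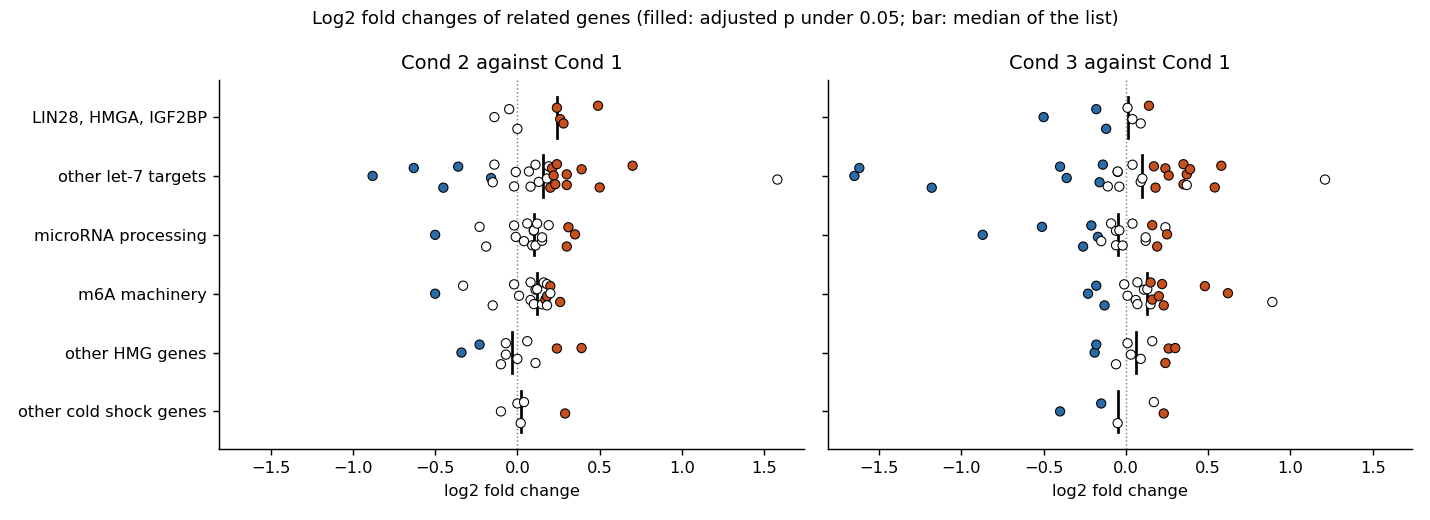
Log2 fold change (x axis) of the members and of 5 lists of related genes (y axis) in Cond 2 and Cond 3 against Cond 1, one point a gene. Orange and blue points passed as higher and lower at an adjusted p-value under 0.05, and black bars are medians. In Cond 2 the members' bar is at 0.24 and that of the other let-7 targets at 0.16, and in Cond 3 they are at 0.01 and 0.094.

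The genes whose log2 CPM (counts scaled to the library's size) followed each member most closely were searched among 15701 genes over the 12 libraries, as a description, since libraries of one condition share their treatment. HMGA2 was closest to CWC22 (r = 0.980), NCOA2 (r = 0.972) and MYL3 (r = 0.970), IGF2BP1 to NSD1 (r = 0.966), NBN (r = 0.965) and NKAIN1 (r = 0.957), and IGF2BP2 to CALCA (r = 0.994), GLUD1 (r = 0.985) and FAM222B (r = 0.983). The closest gene was ATP9A for LIN28A (r = 0.958), FAM155B for LIN28B (r = 0.936), COA4 for HMGA1 (r = 0.932) and NT5M for IGF2BP3 (r = 0.924). None of the members was among the 3 genes closest to another member.

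Some of the members' reads could belong to other genes. The 8 genes named as HMGA1 pseudogenes held 540 to 796 reads per library together, 0.830% to 1.11% of the sum with HMGA1, and the 2 LIN28A pseudogenes held at most 2. Adding these reads changed no call. Of the 31-base words in the members' transcripts, between 1.82% (IGF2BP1) and 28.0% (IGF2BP3) also occurred in transcripts of other genes, for IGF2BP3 mostly in MALSU1 (17.1%). Both strands of these transcripts were searched, so words of genes on the opposite strand are included and were not told apart. The gene sharing most was the antisense LIN28B-AS1 for LIN28B (2.1%) and HMGA2-AS1 for HMGA2 (2.34%). The counting of reads with several matches and the strand setting were not given in the sources used here. The members' counts are uncertain to an extent that the shared words do not settle. The shares of words were largest for IGF2BP3, HMGA1 (17.7%), IGF2BP2 (14.7%) and LIN28A (9.64%). The antisense genes LIN28B-AS1, HMGA2-AS1 and IGF2BP2-AS1 held at most 78, 18 and 0 reads per library.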

How the data were processed

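RNA-Seq libraries (directional, from poly(A) RNA) of 12 samples were analysed. According to the methods and the submitters' processing notes, the authors trimmed reads (cutadapt 4.1, fastp 0.20.1), aligned them to GRCh38 with HISAT2 2.1.0 and obtained counts per gene from featureCounts. The strand setting and the treatment of reads with several matches were not given in the sources used here. The authors deposited raw counts per gene and TPM, which equals counts divided by gene length and scaled per library (largest relative deviation 1.79e-14). Broken lines in the table of counts (5 of 58580) were left out, and none was a member. Of the genes with TPM, 2042 had no counts and could not be tested by edgeR.

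Counts were tested with edgeR 4.0.16 (TMM, quasi-likelihood, one fit over 12 libraries, edgeR's filter on low counts) in R 4.3.3, with p-values adjusted by Benjamini-Hochberg over 17747 genes. TPM served for levels and shares, with exact two-sided permutation tests. Alternatives were DESeq2 1.42.0, limma 3.58.1 on log2(TPM + 1) and log2(TPM + 0.1), other scaling and filters, the 2 conditions alone, a replicate block, added pseudogene counts and each library left out. The scripts were tested on simulated data. The members and lists were chosen with earlier results of these data known. Named genes were all members, from each list up to 3 with the largest rise and up to 3 with the largest fall in Cond 2 and Cond 3 (called, mean TPM at least 1, no overlap), the 3 closest to each member, and pseudogene or antisense genes of members. The text gives some of these. The other genes with 4 or more seed matches were taken by that count.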

Additional observations from a re-analysis of the deposited data

How the results depend on the processing

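The count of called members in Cond 2 (4), Cond 4 (0) and Cond 3 against Cond 2 (4) stayed within 1.5 times under every alternative run, with 3 to 4, 0 and 3 to 5 called when single libraries were left out. In Cond 3 against Cond 1 the 4 called members became 1 with limma on log2(TPM + 1) and 1 on log2(TPM + 0.1), and 2 to 4 without single libraries (2 without replicate 3 of Cond 1 and 2 without replicate 2 of Cond 3). The cause was not tested. The calls of LIN28A, HMGA2 and IGF2BP1 in Cond 2 and of IGF2BP2 in Cond 3 passed in every alternative run. In members that did not pass the test, signs turned in Cond 2 for HMGA1 (0.037 on both limma scales) and IGF2BP2 (0.085 on both, and -0.024 to 0.0095 without a library, among them 0.0024, 0.0033 and 0.0073), in Cond 3 without a library for LIN28B (-0.016 to 0.11, among them -0.0039) and IGF2BP1 (-0.05 to 0.043), in Cond 4 for IGF2BP2 (-0.062 to 0.00067), and in Cond 3 against Cond 2 for IGF2BP3 (-0.12 to 0.0075). Shares of counts, which are not divided by length, gave other differences from Cond 1 than shares of TPM. In Cond 2 the difference was -2.76 points for HMGA1 (-0.482 on TPM) and -4.21 for IGF2BP3 (-3.33 on TPM). In Cond 3 it was -0.989 for HMGA1 (-0.17 on TPM), 5.77 for IGF2BP1 (6.41 on TPM) and -5.18 for IGF2BP2 (-6.89 on TPM). For IGF2BP3 in Cond 3 the sign turned, from 0.476 on TPM to -0.59 on counts.

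Same-numbered libraries of different conditions did not deviate together (correlations -0.0131 to 0.0379, 0 of 18 pairs over 0.1), so the numbers were not taken as pairs. With a replicate block the members called were 4 in Cond 2, 4 in Cond 3, 0 in Cond 4 and 4 in Cond 3 against Cond 2. Each member had at least 2920 reads in each library, and the effect of depth or of the number of libraries on the intervals was not tested.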
